A study of Homo sapiens with 3 samples.

Results

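The genes described here encode 10 enzymes that make, activate or inactivate androgens. SRD5A1, AKR1C3 and STS are on the side of synthesis and activation, and HSD17B11 is a dehydrogenase that oxidises androstanediol. UGT2B7, UGT2B10, UGT2B11, UGT2B15, UGT2B17 and UGT2B28 are on the side of glucuronidation. All 10 genes were chosen by name, with earlier results of these data known. A probe belonged to the set when the platform annotation gave it 1 of these symbols. There were 9 such probes, 1 for each of 9 genes, among 34183 probes and 20399 named genes. No probe carried the symbol UGT2B17, which was not analysed here. Of the 9 genes, 6 passed the filter on dim genes (a mean signal of 131, the 50th percentile of all genes), and 3 (UGT2B28, AKR1C3 and STS) did not.

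The cells were LNCaP, a cell line from a human prostate cancer that responds to androgen. They were grown in medium with fetal bovine serum and given small interfering RNA (siRNA) for 72 h against 1 of 3 fragments of transfer RNA known as SHOT-RNAs. One target came from the 5' side of a lysine tRNA (5'-Lys KD, 20 nM siRNA). The others came from an aspartate tRNA, from its 5' side (5'-Asp KD, 20 nM) and from its 3' side (3'-Asp KD, 10 nM). On 1 two-colour array each, the treated cells were compared with cells that had received Renilla luciferase siRNA, so there were 3 arrays with 1 sample per group and no replicate, and no test was possible. The design asks which mRNAs differ between knockdown and control cells, here for the enzymes that set the androgen supply of the cell.

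Androgens reach prostate cells as testosterone or as weaker and sulfated precursors. Steroid sulfatase frees the precursors, AKR1C3 reduces the precursor androstenedione to testosterone, and the 5-alpha reductases turn testosterone into dihydrotestosterone, the most potent natural androgen. UGT2B enzymes of the endoplasmic reticulum attach glucuronic acid to androgens and their metabolites, which makes them soluble and ends their action. In LNCaP cells androgen treatment is known to lower the mRNAs of UGT2B15 and UGT2B17, so these genes are known as androgen-repressed in this line, opposite to the kallikrein gene KLK3.

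Signed values below are log2 ratios of the first over the second deposited signal column, centred on each array's median over 10200 measured genes. By the dye labels this is the knockdown (Cy3) over the control (Cy5) on every array. The column names give the same direction for the 5'-Lys array but the opposite one for both Asp arrays, so the direction of the Asp ratios is not settled, and each Asp sign would turn if the column names were right. By the dye labels the arrays were of 1 dye orientation, while by the column names both Asp arrays would have the other orientation. In either case a dye effect of a single gene and an effect of the knockdown cannot be told apart in 1 ratio. The median SD between probes of 1 gene was 0.17 on the 5'-Lys array, 0.15 on the 5'-Asp array and 0.16 on the 3'-Asp array over 3086 genes with several probes, on the log2 scale. That SD holds no spread between cultures. All 8 luminal prostate markers that were analysed passed the filter, with summed signals of 85042 to 113105 over the 6 columns. The 3 basal markers (KRT5, TP63, KRT14) summed to 9.14 to 21.4, the 3 leukocyte markers to 77.6 to 126 and the 4 fibroblast markers to 96.5 to 224. The 4 hepatocyte markers, included because liver expresses UGT2B genes, summed to 912 to 2097. Most of this came from TTR, while ALB had at most 153, and the part of such transcripts in the results was not tested.

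Read by the dye labels, 3 of the 4 measured glucuronidation genes were at least 1.5-fold higher after 5'-Asp KD, where 3.54% of all measured genes were. After 3'-Asp KD it was 2 of 4, where 2.30% were. UGT2B11 was only just past the threshold after 5'-Asp KD, at 1.51-fold. UGT2B15 stood at 1.84-fold and UGT2B7 at 1.67-fold after 5'-Asp KD, and at 1.59-fold and 1.91-fold after 3'-Asp KD. After 5'-Lys KD only UGT2B7, at 1.72-fold, was past 1.5-fold among the 4 measured UGT2B genes, and UGT2B15 was level at 1.02-fold. The 2 measured genes outside the UGT2B family, SRD5A1 and HSD17B11, lay within 1.5-fold on all 3 arrays. With 1 array per knockdown these are descriptions of the arrays.

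Of the 6 measured enzyme genes, 1 was at least 1.5-fold higher on the 5'-Lys array, where 4.49% of all measured genes were. On the 5'-Asp array it was 3 of 6 against 3.54%, and on the 3'-Asp array 2 of 6 against 2.30%. None of the 6 was at least 1.5-fold lower on any array, where 6.95%, 4.35% and 2.56% of measured genes were. Centred on all named genes instead, the shares of measured genes were 2.95% higher and 9.82% lower (5'-Lys), 2.25% and 6.15% (5'-Asp) and 1.40% and 4.01% (3'-Asp). UGT2B11 then left the count on the 5'-Asp array. The median log2 ratio of the 6 genes was 0.13, 0.59 and 0.55 on the 5'-Lys array, the 5'-Asp array and the 3'-Asp array, beside 0 for all measured genes by construction. UGT2B genes share sequence, and their probes may bind transcripts of more than 1 member, which was not tested. Because the genes were chosen with earlier results of these data known, a count above the share is a description and not independent support.

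**Figure D1:**
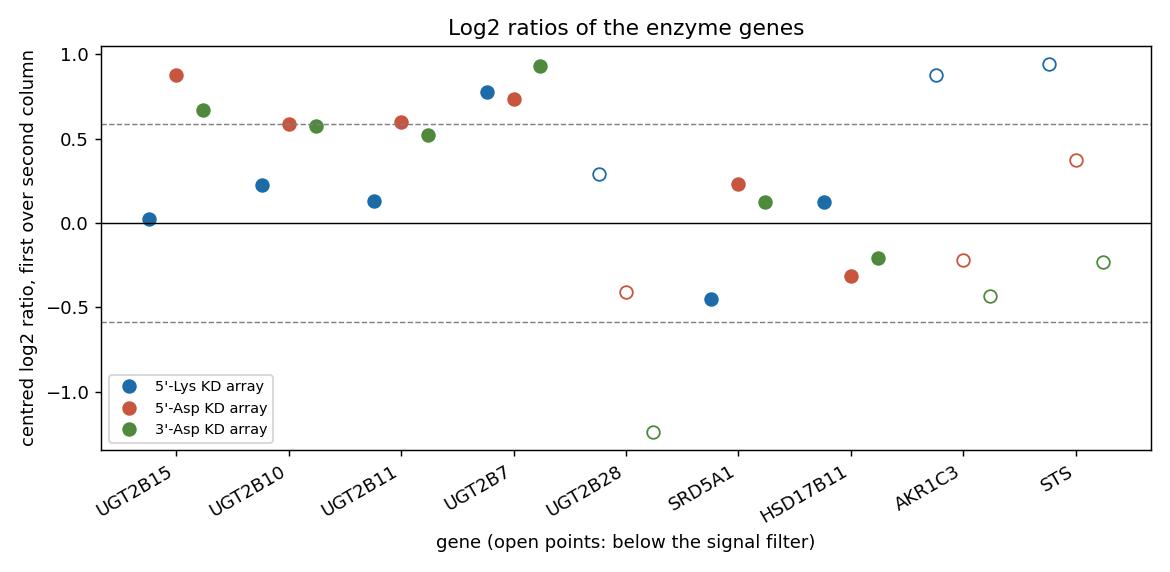
Centred log2 ratio of the first over the second signal column (vertical axis) for the 9 enzyme genes with a probe on each array, coloured by array; open points are genes below the signal filter and dashed lines mark 1.5-fold. UGT2B15, UGT2B10 and UGT2B11 sit near 0 on the 5'-Lys array and at 0.52 to 0.88 on both Asp arrays, while UGT2B7 sits at 0.74 to 0.93 on all of them.

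UGT2B15 conjugates dihydrotestosterone and its diol metabolites. Its probe (A_23_P58407) read 20244 in the first and 19690 in the second column of the 5'-Lys array, 33144 and 17830 on the 5'-Asp array, and 29995 and 18807 on the 3'-Asp array. The first columns of both Asp arrays were higher than the other 4 signals, which lay between 17830 and 20244. The log2 ratios were 0.02, 0.88 and 0.67 in the same order of arrays. UGT2B15 ranked 87th from the highest of 10200 measured genes on the 5'-Asp array, 128th on the 3'-Asp array and 4839th on the 5'-Lys array. Its ratio on the 5'-Asp array exceeded that on the 5'-Lys array, at the same dose, by 0.85 on the log2 scale. With the 5'-Asp sign turned the difference would be -0.90. In the first difference a dye effect of the probe that is the same on both arrays cancels, but the sign of the Asp ratio is still unsettled.

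Between arrays UGT2B15 varied in the first column more than in the second. Relative to the column's median over measured genes, the log2 signal of UGT2B15 had an SD of 0.06 over the 3 second columns and of 0.50 over the 3 first columns. The median gene had 0.12 and 0.16. Taken by the dye labels, the control signals are the 3 second columns. Taken by the column names, the control signals are the second column of the 5'-Lys array and the first columns of the Asp arrays, with an SD of 0.51 for UGT2B15 and a median of 0.18 for measured genes. That second set mixes both dyes, so dye effects of single genes add to its SD. For UGT2B15 the larger SD also follows from its even second columns and its Asp ratios, so it does not decide the direction. HSD17B11 and AKR1C3 went the other way, with SDs of 0.21 and 0.77 by the dye labels and 0.20 and 0.73 by the column names. The other enzyme genes with a probe had the larger SD by the column names.

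UGT2B10, known for attaching glucuronic acid to amines, read 15696 and 13248 in the first and second column of the 5'-Lys array, 22598 and 14876 on the 5'-Asp array, and 21773 and 14561 on the 3'-Asp array. As for UGT2B15, the first columns of the Asp arrays were higher than the other 4. The log2 ratios were 0.23, 0.58 and 0.58. On the 5'-Asp array UGT2B10 fell short of the threshold by 3.88e-05 on the log2 scale, so it is not in the count above.

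UGT2B11, for which activity on androgens is little established, read 6597 and 5955 on the 5'-Lys array, 10679 and 6973 on the 5'-Asp array, and 8618 and 5983 on the 3'-Asp array. The log2 ratios of 0.13, 0.60 and 0.52 were close to those of UGT2B10 on each array. UGT2B10 and UGT2B11 ranked 362nd and 336th from the highest on the 5'-Asp array, and 249th and 339th on the 3'-Asp array. The difference between the 5'-Asp and 5'-Lys ratios was 0.36 for UGT2B10 and 0.47 for UGT2B11, or -0.81 and -0.73 with the 5'-Asp sign turned. UGT2B15, UGT2B10 and UGT2B11 all had mean signals above the 90th percentile of genes. Among the 2040 genes that bright, 2.94% were at least 1.5-fold higher on the 5'-Asp array and 1.72% on the 3'-Asp array.

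UGT2B7 conjugates oestrogens, androgen metabolites and many drugs such as morphine. It read 3558 and 2050 on the 5'-Lys array, 3579 and 2122 on the 5'-Asp array, and 3640 and 1902 on the 3'-Asp array. All 3 first columns were higher than all 3 second columns, and within a column the deposited signals differed by no more than 1.12-fold between arrays. Relative to the column's median over measured genes, the log2 signal had an SD of 0.13 over the first and 0.15 over the second columns. The median gene had 0.16 and 0.12. The log2 ratios of 0.78, 0.74 and 0.93 were alike, first over second column, on the 3 arrays, and the 5'-Asp ratio minus the 5'-Lys ratio was -0.04. With the Asp signs turned, the ratios minus that of 5'-Lys KD would be -1.52 (5'-Asp) and -1.71 (3'-Asp). For this constant ratio too, dye and knockdown cannot be told apart. UGT2B7 was 1 of 84 measured genes at least 1.5-fold higher in the first column on all 3 arrays, and UGT2B7 and UGT2B15 were among 112 such genes on both Asp arrays.

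**Figure D2:**
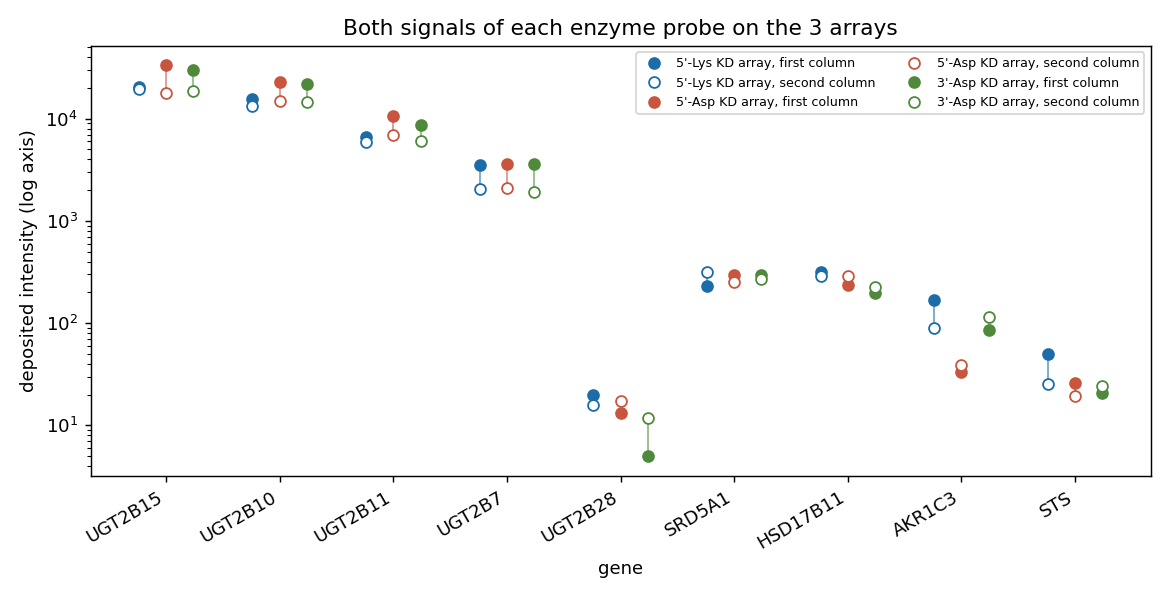
Deposited intensity on a log axis for each of the 9 probes, with the first column of an array as a filled point and the second as an open point, joined by a line and coloured by array. The filled points of UGT2B15, UGT2B10 and UGT2B11 stand above the open ones on both Asp arrays, UGT2B7 shows the same gap on every array, and AKR1C3 is lowest in both columns on the 5'-Asp array; heights of different probes are not comparable levels.

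UGT2B28, which has activity on androgens when expressed in cells, was dim. It read 19.7 and 16.0 on the 5'-Lys array, 13.3 and 17.5 on the 5'-Asp array, and 4.97 and 11.7 on the 3'-Asp array. The negative control probe had 3.88 and 2.20 on the last of these, so the first column there lay near the floor. The log2 ratios of 0.29, -0.41 and -1.24 did not follow those of the measured UGT2B genes on the Asp arrays, and at such signals the ratio depends on the background (the value on the 3'-Asp array was -0.21 after normexp correction).

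The UGT2B genes lie side by side on chromosome 4, in the order UGT2B17, UGT2B15, UGT2B10, UGT2B7, UGT2B11 and UGT2B28 among protein-coding genes of RefSeq, with UGT2A3 between UGT2B10 and UGT2B7. The UGT2A3 probe read 3.35 to 3.90 in the first and 1.92 to 2.42 in the second columns, below the negative control probe on each array. UGT2B4, the next gene after UGT2B28, had a first column of 64.3, 70.5 and 75 on the 3 arrays and second columns of 30.9 to 78.5, below the filter. YTHDC1, an mRNA-methylation reader gene on the other side of the cluster, had log2 ratios of -0.20, 0.18 and 0.22.

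The promoter sequences of the 4 measured UGT2B genes are shown because 3 of these genes had like ratios on the Asp arrays and 1 had the same ratio on all arrays. They are from RefSeq (GRCh38.p14), 250 bases before to 50 after the start of the gene, read 5' to 3' on the strand of the gene. Capitals mark matches, on either strand, to the steroid hormone half-site AGAACA, the nuclear receptor half-site AGGTCA and the forkhead core TATTTAC or its variant with G as the second base, TGTTTAC. These motifs were picked after the sequences had been read, and no 2 of the marked matches overlap.
UGT2B15, chr4:68670603-68670902, minus strand: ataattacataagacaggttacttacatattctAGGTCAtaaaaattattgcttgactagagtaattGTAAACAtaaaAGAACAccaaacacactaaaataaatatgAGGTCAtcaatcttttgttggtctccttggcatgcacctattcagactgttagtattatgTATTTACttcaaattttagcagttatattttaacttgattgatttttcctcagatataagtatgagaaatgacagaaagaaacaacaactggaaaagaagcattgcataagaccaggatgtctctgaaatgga
UGT2B10, chr4:68815744-68816043, plus strand: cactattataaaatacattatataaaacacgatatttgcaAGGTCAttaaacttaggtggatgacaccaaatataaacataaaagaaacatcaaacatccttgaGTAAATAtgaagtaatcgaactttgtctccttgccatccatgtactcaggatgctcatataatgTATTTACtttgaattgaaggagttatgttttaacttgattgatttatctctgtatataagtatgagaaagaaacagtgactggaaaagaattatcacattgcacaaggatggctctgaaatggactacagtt
UGT2B11, chr4:69214699-69214998, minus strand: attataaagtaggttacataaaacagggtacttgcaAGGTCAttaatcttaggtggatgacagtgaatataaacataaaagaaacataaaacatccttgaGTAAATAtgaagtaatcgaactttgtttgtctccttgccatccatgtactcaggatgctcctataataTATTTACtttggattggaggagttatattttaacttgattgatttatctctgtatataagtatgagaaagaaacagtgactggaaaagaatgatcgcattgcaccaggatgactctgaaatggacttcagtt
UGT2B7, chr4:69096224-69096523, plus strand: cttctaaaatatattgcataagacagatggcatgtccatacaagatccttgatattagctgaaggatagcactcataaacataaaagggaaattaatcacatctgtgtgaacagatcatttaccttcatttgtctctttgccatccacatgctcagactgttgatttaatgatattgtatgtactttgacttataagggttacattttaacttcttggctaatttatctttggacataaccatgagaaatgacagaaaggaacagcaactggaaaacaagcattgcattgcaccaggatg

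The UGT2B15 promoter held 1 AGAACA, starting at -172 from the gene start, together with AGGTCA at -217 and -143, GTAAACA (the reverse complement of TGTTTAC) at -183 and TATTTAC at -83. The UGT2B10 and UGT2B11 promoters held no AGAACA. Each had 1 AGGTCA, at -210 in UGT2B10 and at -214 in UGT2B11. The reverse complement of the first forkhead core, GTAAATA, started at -146 and at -150 in these promoters. The forward form of that core started at -82 in both. No match to any of these motifs occurred in the UGT2B7 window, which depends on the exact letters chosen. ATAAACA, which differs from GTAAACA only in its first base, was not among the motifs. It stands unmarked in the UGT2B7, UGT2B10 and UGT2B11 windows. Of 35116 promoters of the same length, 14.8% held AGAACA or its reverse complement, 13.8% AGGTCA and 5.97% a forkhead core. These shares take no account of the base composition of the promoters. In pairwise global alignment the UGT2B10 and UGT2B11 windows were 90.1% identical, those of UGT2B15 and UGT2B11 70.6%, and those of UGT2B10 and UGT2B7 63.1%. A match is a description of these letters and not of binding.

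On the side of synthesis, SRD5A1, the 5-alpha reductase that turns testosterone or androstenedione into 5-alpha reduced androgens, read 232 and 314 on the 5'-Lys array, 298 and 250 on the 5'-Asp array, and 292 and 268 on the 3'-Asp array. The first column was below the second on the 5'-Lys array and above it on the Asp arrays. The log2 ratios of -0.45, 0.23 and 0.12 all lay within 1.5-fold. The 5'-Asp ratio minus the 5'-Lys ratio was 0.68, or 0.22 with the 5'-Asp sign turned, and the SD of its log2 signal was 0.04 over the second columns and 0.32 over the first. SRD5A1 thus shared with UGT2B15 a second column that varied less than that of the median gene and a first column that varied more. The other 4 measured enzyme genes had second columns that varied more than that of the median gene (0.12). Their SDs were 0.15 (UGT2B7), 0.22 (UGT2B10), 0.24 (UGT2B11) and 0.21 (HSD17B11).

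HSD17B11, a lipid-droplet dehydrogenase that oxidises androstanediol to androsterone, went the other way. It read 317 and 287 on the 5'-Lys array, 236 and 289 on the 5'-Asp array, and 197 and 228 on the 3'-Asp array. The log2 ratios were 0.13, -0.31 and -0.21, within 1.5-fold throughout. When the mean second column of the 3 arrays served as the control, the value was -0.05 on the 5'-Asp array and -0.41 on the 3'-Asp array.

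AKR1C3 reduces androstenedione to testosterone. It read 167 and 89.99 on the 5'-Lys array, 33.5 and 38.5 on the 5'-Asp array, and 85.6 and 115 on the 3'-Asp array. Both columns were lowest on the 5'-Asp array, while from the 5'-Lys to the 3'-Asp array the first column was lower and the second higher. The first columns spanned 4.99-fold and the second columns 2.99-fold, and the SD of the log2 signal in the second columns was 0.77 against 0.12 for the median gene. The log2 ratio was 0.88 on the 5'-Lys array, -0.22 on the 5'-Asp array and -0.43 on the 3'-Asp array. Against the mean second column of the 3 arrays it was 0.95, -0.95 and 0.22, so the 5'-Asp value passed 1.5-fold and the 3'-Asp value changed sign. Its close relative AKR1C1, a reductase that inactivates progesterone, had the same order on its 2 brighter probes. Those probes gave 0.61 and 0.65 on the 5'-Lys array, -0.55 and -0.71 on the 5'-Asp array, and -0.74 and -0.84 on the 3'-Asp array. The brighter of these probes read 195 and 126 on the 5'-Lys array, 45.9 and 66.1 on the 5'-Asp array, and 109 and 183 on the 3'-Asp array, and so was also lowest in both columns on the 5'-Asp array. AKR1C probes may bind transcripts of several family members. A further AKR1C1 probe read 3.33 to 3.86 in the first columns, below the negative control.

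STS, the sulfatase that frees steroids from their sulfates, read 49.5 and 25.5 on the 5'-Lys array, 25.7 and 19.6 on the 5'-Asp array, and 20.9 and 24.5 on the 3'-Asp array. The first column of the 5'-Lys array stood above the other 5 signals, which lay between 19.6 and 25.7. The log2 ratios were 0.94, 0.38 and -0.23. AKR1C3 and STS were at least 1.5-fold higher on the 5'-Lys array but were below the signal filter. After normexp correction STS had 0.38 there, within 1.5-fold. Without that filter 19.7% of all named genes were at least 1.5-fold higher there.

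**Figure D3:**
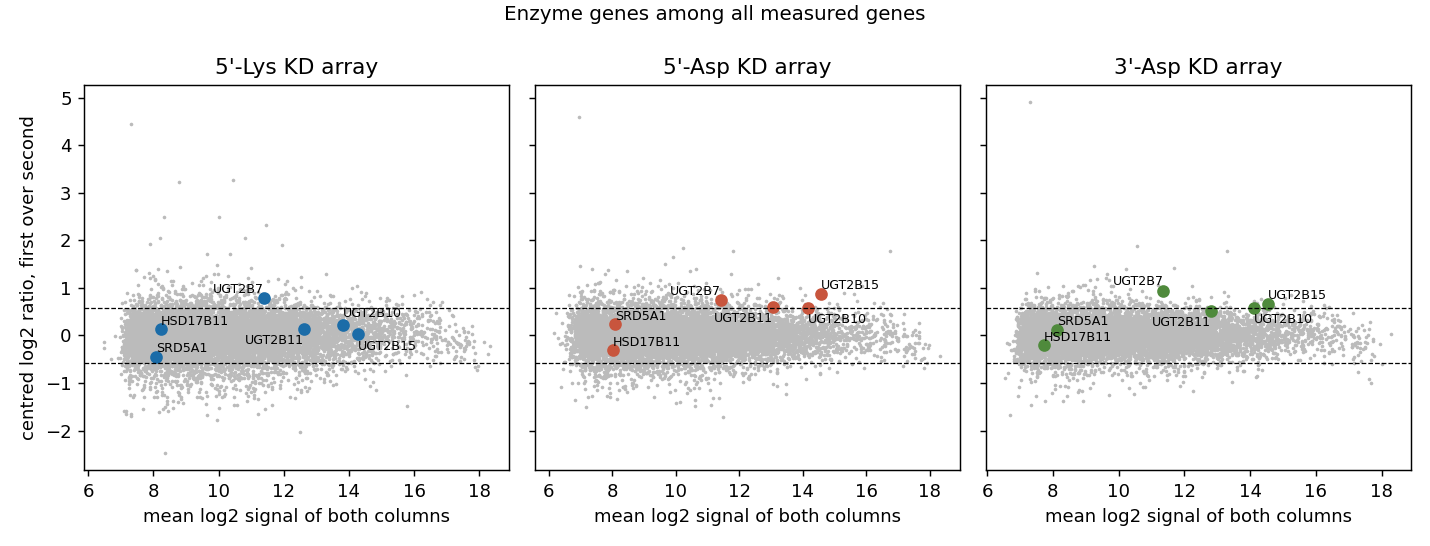
Centred log2 ratio of the first over the second column (vertical axis) against the mean log2 signal of both columns (horizontal axis) for the 10200 measured genes (grey) and the 6 measured enzyme genes (coloured, named), 1 panel per array; dashed lines mark 1.5-fold. On both Asp arrays UGT2B15 lies at the upper edge of genes of like signal, and on the 5'-Lys array it lies in the middle.

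Of 59 further genes of androgen and glucuronide metabolism, 52 had a probe and 21 passed the signal filter. None of the 21 was at least 1.5-fold higher on any array, where 4.49% (5'-Lys), 3.54% (5'-Asp) and 2.30% (3'-Asp) of measured genes were. At least 1.5-fold lower were 1 on the 5'-Lys array, 2 on the 5'-Asp array and 1 on the 3'-Asp array. The shares of measured genes that low were 6.95%, 4.35% and 2.56%. Counts this small in 21 genes do not set the list apart from those shares. The medians of the 21 log2 ratios were -0.11, 0.01 and -0.08. The measured UGT2B genes had medians of 0.18, 0.67 and 0.62.

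The lower genes on the Asp arrays were SRD5A3, a polyprenol reductase of protein glycosylation that belongs to the 5-alpha reductase family, and HSD17B6, which oxidises androstanediol back to dihydrotestosterone. SRD5A3 read 691 and 881 on the 5'-Lys array, 555 and 913 on the 5'-Asp array, and 478 and 800 on the 3'-Asp array. The first column was the lower one each time, and the log2 ratios were -0.37, -0.74 and -0.74. HSD17B6 had -0.31, -0.66 and -0.47. On the 5'-Lys array the lower gene was UGP2, which makes the UDP-glucose from which UDP-glucuronic acid is formed. It read 698 and 1553 there, a log2 ratio of -1.17, and stood at 0.06 and 0.01 on the 5'-Asp and 3'-Asp arrays. UGDH, which oxidises UDP-glucose to the glucuronic acid donor of the UGT enzymes, had 0.21, 0.15 and -0.45.

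The highest ratios of the wider list stayed within 1.5-fold. On the 5'-Lys array they were those of HSD17B12 (0.41), HSD17B8 (0.37) and FDXR (0.29), and after UGP2 the lowest were SRD5A3 and CYB5A (-0.37 each). On the 5'-Asp array CYP17A1, the lyase that opens the androgen branch of steroid synthesis, had 0.27, its electron donor POR 0.19 and UGDH 0.15, and GUSB, a glucuronidase, had -0.27. On the 3'-Asp array CYP17A1 had 0.35, PAPSS1 0.29 and POR 0.26, while the adrenodoxin gene FDX1 had -0.51. SRD5A2, the other 5-alpha reductase of the prostate, read at most 13.9 in any column and UGT1A8 at most 38.7.

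**Figure D4:**
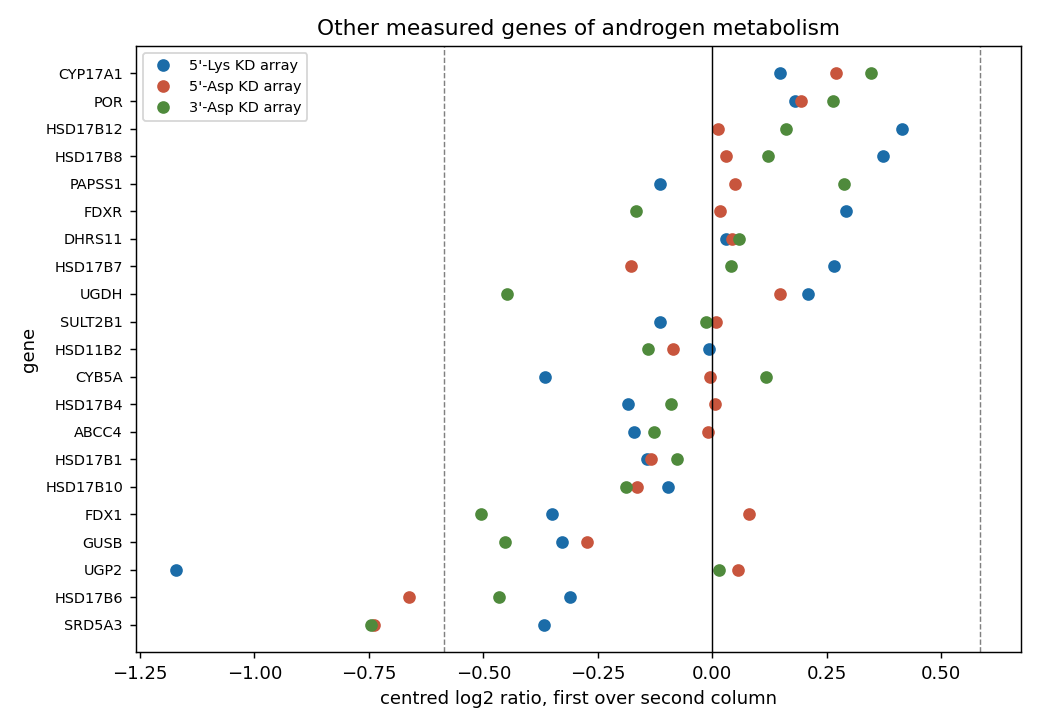
Centred log2 ratio of the first over the second column (horizontal axis) for the 21 measured genes of the wider androgen list (rows), coloured by array, with dashed lines at 1.5-fold. UGP2 on the 5'-Lys array (-1.17) and SRD5A3 on both Asp arrays (-0.74) are the points furthest from 0 for their arrays.

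The androgen-induced KLK3, which encodes prostate-specific antigen, lay below 0 on all arrays (-0.70, -0.71 and -0.97). UGT2B15 lay above 0 by more than 1.5-fold on the Asp arrays and at 0.02 on the 5'-Lys array. On each Asp array KLK3 and UGT2B15 therefore had opposite signs, which holds whichever column was the control. TMPRSS2, which is androgen-induced as well, had -0.52 on the 5'-Lys array, and 0.58 and 0.20 on the 5'-Asp and 3'-Asp arrays, the same sign as UGT2B15 on the latter. The mean pattern of the 4 measured UGT2B genes was 0.29, 0.70 and 0.68, and UGT2B7 brought the highest 5'-Lys value into it (0.78). Over all 3 arrays the measured genes nearest to it were PRR5-ARHGAP8, MIDN, SCARNA17, HCN2 and ANXA9. Their Euclidean distances were 0.07 to 0.15 between log2 ratios. The enzyme genes themselves and names of uncharacterised loci were left out of this search.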

How the data were processed

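LNCaP RNA was hybridised to 3 two-colour arrays by a service company, per the labels' protocols. The deposited intensities came as 2 signals for each probe and array, called raw per the file headers. The sources used here do not say how signals were extracted or corrected. Each array's column medians were close (94.0 and 95.0, 70.7 and 70.9, 79.7 and 80.9 for 5'-Lys, 5'-Asp and 3'-Asp KD), so the intensities were used as deposited. The deposited series values, treated as a score, were signed folds of the first over the second column times 1 constant per array. Their medians were 1.06, 1.07 and 1.05, and scale, centring and direction are known relative to the columns. Over 10 spike-in probes the ratios of any 2 arrays correlated at 0.999 or above, so the first column held 1 dye on every array.

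Platform symbols of 2015 (28048 probes with 1, 0 with several, 6079 with none) were updated through transcript accessions for 25515 probes, with 354 kept though not current. Log2 signals were averaged per gene, filtered at the 50th percentile and centred on measured genes. Differences are described at 1.5-fold, with no p-value. The number of arrays limits the precision. Alternatives were limma 3.58.1 (R 4.3.3) loess and normexp with an offset of 50, the signed folds, the mean second column after Aquantile scaling, other filters, the brightest probe, other centring, the column-name direction and a 2-fold threshold. Python 3.11.15, numpy 2.4.6, pandas 2.3.3 and Biopython 1.88 did the rest, and the steps were tested on simulated data. Genes, lists and promoter motifs were chosen with earlier results of these data known. Named were all members, the 3 highest and 3 lowest measured genes of the wider list per array, and any of it past 1.5-fold. The 5 genes nearest to the mean UGT2B pattern, uncharacterised loci left out, were named too. YTHDC1, UGT2A3, UGT2B4, AKR1C1, SRD5A2 and UGT1A8 were named after their values had been seen.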

Additional observations from a re-analysis of the deposited data

Results flagged for a closer look

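For 3 enzyme genes below the signal filter the ratio had opposite signs on 2 arrays, with at least 1 of them past 1.5-fold. Each difference rests on 1 array per knockdown and was not tested, and on the Asp arrays the sign depends on the dye labels. The log2 ratio of AKR1C3 was higher on the 5'-Lys array than on the 5'-Asp array by 1.10 and than on the 3'-Asp array by 1.31. That of STS was higher on the 5'-Lys than on the 3'-Asp array by 1.18, and that of UGT2B28 by 1.53. After normexp correction STS had 0.38 and -0.10 on these arrays and UGT2B28 0.04 and -0.21, all within 1.5-fold. Against the mean second column AKR1C3 had -0.95 on the 5'-Asp array and 0.22 on the 3'-Asp array, so its 3'-Asp sign was then that of the 5'-Lys array. With the column-name direction AKR1C3 would have 0.22 on the 5'-Asp and 0.43 on the 3'-Asp array, above 0 like its 0.88 on the 5'-Lys array.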

How the results depend on the processing

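The direction of the Asp arrays changes most. By the column names the median log2 ratio of the 6 measured enzyme genes would be -0.59 on the 5'-Asp and -0.55 on the 3'-Asp array. UGT2B15 would have -0.88 and -0.67, UGT2B7 -0.74 and -0.93 and UGT2B11 -0.60 (5'-Asp), and the dim UGT2B28 1.24 (3'-Asp). At a 2-fold threshold the count of measured enzyme genes fell to 0 on each array. Few measured genes passed that threshold, with 0.608% higher and 1.35% lower after 5'-Lys KD and at most 0.529% either way after an Asp KD. Without the filter on dim genes 3 of 9 were at least 1.5-fold away on the 5'-Lys array, all of them higher. Of all 20399 named genes 19.7% were that much higher there and 9.25% lower. On the 5'-Asp array 3 of 9 were higher and 0 lower, beside 21% and 7.29% of named genes. On the 3'-Asp array 2 of 9 were higher and 1 lower, beside 19.7% and 6.19%. Counts this small in 9 genes do not stand apart from those shares on any array. The median over the 9 genes was then 0.38 on the 5'-Asp and 0.12 on the 3'-Asp array. Loess, normexp, the signed folds, the mean second column, the brightest probe and the other centring left each count within 1.5 times and each median within the SD between probes, as did the filter at the 75th percentile. Over the first 6 of these settings UGT2B15 had 0.79 to 0.88 on the 5'-Asp array, 0.60 to 0.75 on the 3'-Asp array and -0.06 to 0.03 on the 5'-Lys array. UGT2B10 had 0.50 to 0.68 and UGT2B11 0.51 to 0.79 on the 5'-Asp array, on both sides of 1.5-fold. AKR1C3 had -0.51 to 0.22 on the 3'-Asp array. Of these 6 settings, the signed folds could not differ from the main values, being the column ratios times 1 constant per array. Each enzyme gene had 1 probe, so the brightest probe and the other centring could only shift all of them by 1 constant per array. No paired analysis was possible because each group has 1 array. Probes near the floor have ratios that depend on the background.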
